A study of Mus musculus with 6 samples.

Results

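The genes described here are those that lay below a common RNA reference in Irf4 heterozygous Th17-polarized cells and lay lower still, by at least 1 log2 unit, in Irf4 null cells. They number 112 of the 689 gene symbols in the authors' deposited table of changed probes, and are called members below. Each level is a log2 ratio of the sample to the reference, with the listed probes of a symbol averaged, so that a value of -1 marks a signal at 0.5 of the reference signal. The members were chosen by the mean of the heterozygous samples (below 0) and by null minus heterozygous (at or below -1). Some gene families and single genes were barred by symbol whatever their values. For that reason, 4 symbols that met both limits were set aside, Cd86 among them. The levels and differences of members are therefore a description of how they were chosen, and no test of them is given.

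The samples were T cells of 2 genotypes on the C57BL/6J background, 3 samples Irf4 -/- (null) and 3 samples Irf4 +/- (heterozygous), all started from splenic naive CD4+, CD62L-high, CD25-negative cells. Both groups were cultured for 42 h on anti-CD3-coated plates with anti-CD28, IL-6, IL-23 and human TGF-beta, and with IL-4 and interferon gamma blocked by antibodies, conditions that drive cells toward the Th17 fate. The controls carry 1 mutant copy and are not wild type, and for heterozygous replicate 3 a description field writes the genotype ambiguously while its title and genotype field give heterozygous. The design text calls the replicates biological, but whether they were separate mice or cultures, the age of the mice and the deleted part of Irf4 are not given in the sources used here. Every array held a Cy5-labelled sample against 1 Cy3-labelled pool, described in the labels as RNA from 11 tissues, with no dye swap.

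Irf4 is a transcription factor that antigen receptor signalling induces in lymphocytes. It binds DNA poorly alone and pairs with BATF and JUN proteins at composite AP-1-IRF elements, or with ETS factors such as PU.1 and SpiB at ETS-IRF elements. In T cells it is required for Th17 differentiation and takes part in the enlargement and metabolic change that follow activation. A 2-colour array gives a ratio for each probe and not an absolute level, so a gene below the reference may be strongly expressed in a reference tissue and still be well expressed in T cells.

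Irf4 itself, which is not a member, had log2 ratios of 0.62, 0.65 and 0.73 in null samples, against 3.02, 2.85 and 2.93 in heterozygous samples. The groups did not overlap, and limma gave a difference of -2.26 (SE 0.12, Benjamini-Hochberg adjusted p = 0.00351), 4.81-fold lower in null cells. Across all 22749 probes the arrays had medians between -0.032 and 0.065 and SDs of 1.61 to 1.83, and exact ratios of 0 made up 0.673% to 5.28% of an array, most on null replicate 1. With 3 arrays a group, precision is limited by array number. In whole cultures, fewer cells of a type and less RNA per cell cannot be told apart. Of 20 T cell identity genes on a list, 3 had a named probe (Cd247, Cd28 and Gata3). Probes are named only in the authors' table of changed probes, so these 3 were bound to differ between the groups. They are therefore no check of the labelled cell type, and it could not be checked on the others. Cd247, a chain of the T cell receptor complex, had -0.33, 0 and 1.12 in null samples, against 2.56, 3.41 and 1.66 in heterozygous samples (limma adjusted p = 0.0998). Cd28, a costimulatory receptor, had 0, 0.32 and 0 in null samples, against 0.78, 1.07 and 2.16 in heterozygous samples (limma adjusted p = 0.146). Gata3, a transcription factor of T cell development and Th2 cells, was the 1 called gene of the 3 and was higher in null cells, with -0.75, -0.75 and -0.81 in null samples, against -2.22, -2.10 and -2.52 in heterozygous samples (difference 1.51, limma adjusted p = 0.0121).

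Promoter sequences are shown first, because they are a property that the choice of members did not use. RefSeq promoter windows of the build GRCm38.p6, each 250 bases before to 50 bases after a transcript start, were found for 84 of the 112 members, 115 windows in all. One stretch is shown because it lies before the starts of a pair of members: Tmem176a and Tmem176b lie head to head, and the 250 bases before a Tmem176a start (chr6:48841233-48841482, plus strand) share 155 bases, in capitals, with the 250 bases before a Tmem176b start (chr6:48841138-48841387, minus strand).
Tmem176a: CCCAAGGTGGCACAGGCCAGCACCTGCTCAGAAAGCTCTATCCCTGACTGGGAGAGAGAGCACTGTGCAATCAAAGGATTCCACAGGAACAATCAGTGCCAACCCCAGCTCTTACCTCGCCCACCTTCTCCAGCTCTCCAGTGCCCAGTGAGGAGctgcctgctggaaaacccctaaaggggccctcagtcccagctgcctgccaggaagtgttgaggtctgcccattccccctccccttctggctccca

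The next windows are shown because they hold the elements that Irf4 is known to bind. Matches were searched on both strands. In Ncf1 (chr5:134229626-134229875, minus strand) capitals mark the 1 interferon-stimulated element (GAAA, 2 free bases, GAAA) found among member windows. In Ptgir (chr7:16906240-16906489, plus strand) and Tmcc3 (chr10:94311699-94311948, plus strand) capitals mark the only ETS-IRF elements (GGAA, 2 free bases, GAAA) found among them.
Ncf1: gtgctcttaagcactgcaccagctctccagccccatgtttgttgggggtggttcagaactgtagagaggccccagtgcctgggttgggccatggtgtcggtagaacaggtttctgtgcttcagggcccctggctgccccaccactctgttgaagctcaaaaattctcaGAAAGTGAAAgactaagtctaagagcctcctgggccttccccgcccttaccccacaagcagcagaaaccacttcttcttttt
Ptgir: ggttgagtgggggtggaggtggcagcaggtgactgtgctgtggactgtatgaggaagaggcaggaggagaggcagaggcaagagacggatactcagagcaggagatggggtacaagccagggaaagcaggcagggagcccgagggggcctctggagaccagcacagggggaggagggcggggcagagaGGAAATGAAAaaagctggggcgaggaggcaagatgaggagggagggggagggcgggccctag
Tmcc3: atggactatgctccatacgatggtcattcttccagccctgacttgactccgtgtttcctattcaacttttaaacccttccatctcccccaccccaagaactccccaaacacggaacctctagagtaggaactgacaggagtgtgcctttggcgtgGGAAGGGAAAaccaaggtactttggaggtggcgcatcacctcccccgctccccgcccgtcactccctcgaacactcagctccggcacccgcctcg

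AP-1 sites, TGANTCA, are in capitals in Dclk1 (chr3:55461478-55461727, plus strand), which had 2 of them before its start, and in Slamf7 (chr1:171649000-171649249, minus strand).
Dclk1: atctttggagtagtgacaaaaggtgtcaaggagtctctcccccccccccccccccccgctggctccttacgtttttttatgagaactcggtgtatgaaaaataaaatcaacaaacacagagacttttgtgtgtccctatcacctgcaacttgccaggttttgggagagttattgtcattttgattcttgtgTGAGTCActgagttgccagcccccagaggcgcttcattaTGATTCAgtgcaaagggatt
Slamf7: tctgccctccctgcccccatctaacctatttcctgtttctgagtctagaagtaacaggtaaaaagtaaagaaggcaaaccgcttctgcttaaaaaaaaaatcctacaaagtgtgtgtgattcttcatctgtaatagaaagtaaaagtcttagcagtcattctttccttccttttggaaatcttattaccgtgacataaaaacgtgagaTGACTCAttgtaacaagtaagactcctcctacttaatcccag

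AP-1 sites were the most frequent of these elements in member windows, at 13 of 115 windows (11.3%) from 11 members, against 7.81% of all 32851 windows and 6.99% of the windows of protein-coding genes. The members with a site were Anxa2, Atp6v0a1, Capn2, Dclk1, Itgax, Kdm3a, Lmna, Prnp, Sipa1l2, Slamf7 and Tmcc3. Windows of a gene can overlap, so a site can count more than once in these shares, as that of Tmcc3 did. Among named genes lower in null cells but at or above the reference, which number 244, the share was 9.85% of 264 windows, and among the 328 named genes higher in null cells it was 9.09% of 319 windows. The interferon-stimulated element was in 0.870% of member windows, against 1.89% for the other lower genes, 6.27% for the higher genes and 3.44% for all windows. The ETS-IRF element was in 1.74% of member windows and in 2.72% of all windows. Neither form of the AP-1-IRF element (GAAA directly before TGANTCA, or TTTC, 4 free bases and TGANTCA) was in any member window, where all windows had 0.125% and 0.119%. These elements overlap by their letters, since both forms of the AP-1-IRF element hold an AP-1 site. The STAT motif TTCNNNGAA was in 7.83% of member windows and 8.30% of all windows. The TATA box TATAAA was in 7.83% of member windows, against 13.6% for the other lower genes and 13.6% for all windows. These shares describe short windows only, and a match is not a bound site. They were not adjusted for the base content of the windows, which differed between the sets, as given below.

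Member windows were also rich in C and G. Their median content was 63.0%, against 55.8% for the other lower genes, 56.0% for the higher genes and 56.3% for protein-coding genes. The ratio of observed to expected CpG exceeded 0.6 in 60.0% of member windows, in 40.2% of the windows of the other lower genes and in 37.0% of those of the higher genes. Protein-coding genes as a whole had 47.6%. Members were long genes: the median span in the RefSeq table was 40.7 kb for 111 members, against 26.3 kb for the other lower genes, 31.1 kb for the higher genes and 17.1 kb for protein-coding genes. Spans over 100 kb were found for 25.2% of members, 16.7% of the other lower genes, 22.5% of the higher genes and 11.1% of protein-coding genes. The longest were Arhgap24 at 697.8 kb, Sema6d at 577.8 kb and Atrnl1 at 522.4 kb. Since array probes and the deposited selection cover only some genes, none of these shares was tested.

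Levels of members ranged, as group means, from -6.83 to -1.06 in null cells and from -4.98 to -0.011 in heterozygous cells, with medians of -2.65 and -1.27. The median difference was -1.31, a 2.48-fold lower level, beside a median of -0.05 over all genes and probes. The largest difference was -3.70, 33 members had a difference of at least 1.5 in size, 9 of at least 2 and 2 of at least 3. By starting level, the median difference was -1.30 for the 44 members with a heterozygous mean between -1 and 0, -1.36 for the 35 between -2 and -1, -1.25 for the 21 between -3 and -2, and -1.33 for the 12 below -3. The limit of -1 holds every such median near it, so no relation between level and size is read from them. The largest difference in those bins was -3.70, -2.86, -3.08 and -2.04 in the same order. None of the null values of any member was above the reference, whereas 18 members had at least 1 heterozygous sample above it. This contrast is largely built into the choice.

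**Figure D1:**
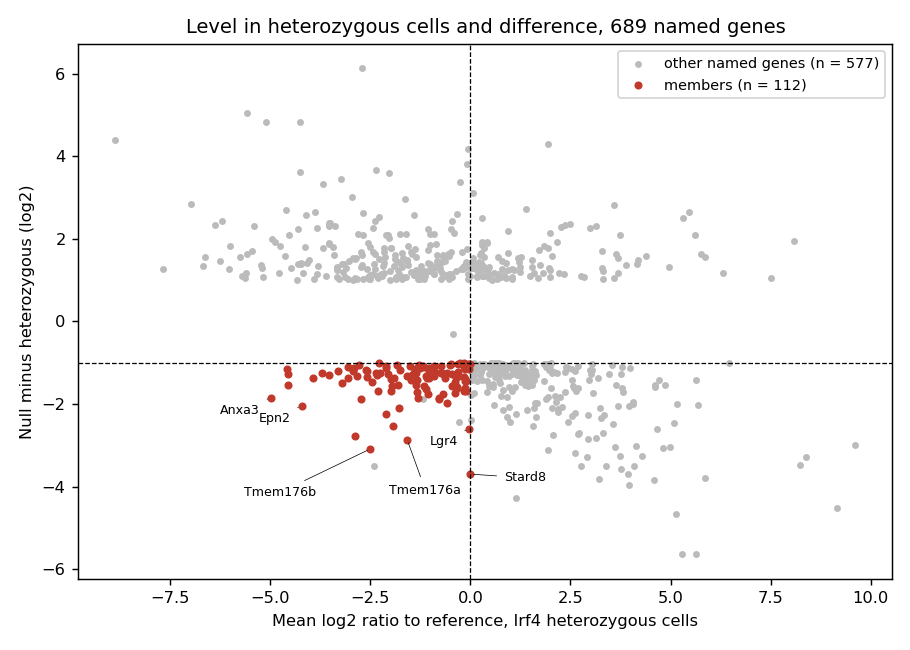
Mean log2 ratio to the reference in heterozygous cells (x axis) against null minus heterozygous in log2 units (y axis) for 689 named genes, with the 112 members in red and the 2 limits of the choice as dashed lines. Members fill the lower left quadrant, from Stard8 at the right edge to Anxa3 at -4.98, and the band around a difference of 0 holds 1 gene, Serpinb1b, whose 2 probes differ in opposite directions, because the authors' table keeps probes past a 2-fold change.

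By array, member medians were -2.68, -2.75 and -2.66 in null samples, against -1.09, -1.40 and -1.14 in heterozygous samples. Set against the heterozygous mean of each gene, the median member difference was -1.42, -1.37 and -1.32 on null arrays 1, 2 and 3. Of the 112 members, 94, 94 and 80 were lower by at least 1 unit on null arrays 1, 2 and 3. Members were chosen on the means of these same arrays, so these lower levels and counts largely follow from the choice. Heterozygous replicate 2 was the lowest heterozygous sample for 62 members, while heterozygous replicate 1 was the highest for 51. The lowest null sample was replicate 1 for 52 members, replicate 3 for 36 and replicate 2 for 24.

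**Figure D2:**
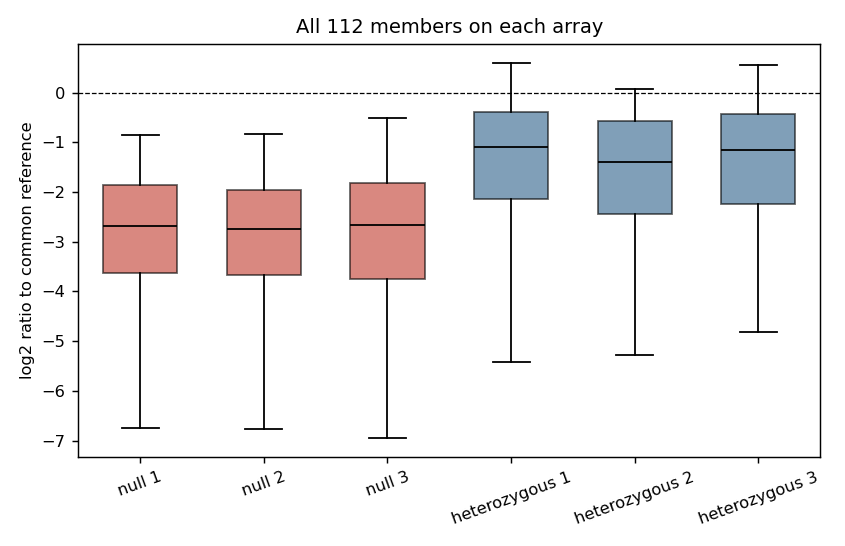
Log2 ratios of the 112 members on each of the 6 arrays, null arrays in red and heterozygous arrays in blue; boxes span the quartiles, lines mark the median and whiskers reach the lowest and highest member. Medians lie between -2.75 and -2.66 on null arrays and between -1.40 and -1.09 on heterozygous arrays, and the ranges of the groups overlap because members differ in level.

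The groups did not overlap for any of the 112 members, a consequence of the choice, where 17.6% of all 22622 genes and probes had every null sample below every heterozygous sample. The smallest gap between the lowest heterozygous and the highest null value was 0.14 and the median gap was 0.72. In the limma fit across all rows, 49 of the 112 members had an adjusted p under 0.05, where 1.17% of all rows were called lower, 1.26% higher and 2.44% either way (3.01% lower at an adjusted p under 0.1). The same contrast chose the members, so nothing is read from that count. Leaving out single null samples 1, 2 and 3 gave counts of 24, 0 and 29, and leaving out single heterozygous samples 1, 2 and 3 gave 11, 18 and 2. Without null replicate 2, where 0 members passed after adjustment, the unadjusted limma p was under 0.05 for 112 members and for 3216 of all 22622 rows. The authors' table had already been filtered on a p under 0.05 in these samples, so nothing is read from the unadjusted count either.

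Within-group spread was much the same in both groups, with a median SD of 0.31 in null cells and 0.31 in heterozygous cells. The other lower genes had median SDs of 0.30 and 0.30. Tightest were Mtss1, which encodes a membrane-bending actin regulator, and Id1, which encodes an inhibitor of basic helix-loop-helix factors. Mtss1 had -1.567, -1.460 and -1.495 in null samples, against -0.11, -0.18 and -0.079 in heterozygous samples. Id1 had -4.47, -4.43 and -4.41 in null samples, against -3.19, -3.02 and -2.99 in heterozygous samples. Both genes were averages of 2 listed probes, where 96 members had 1, and averaging can narrow a spread. The 2 probes of Mtss1 had heterozygous means of 0.44 and -0.68. The widest null spread was that of Snx30, a sorting nexin gene, with -3.01, -1.70 and -1.39. The widest heterozygous spread was that of Lefty1, with 0.27, -1.46 and -0.0071, where replicate 2 stood well below the others. None of the 774 values of member probes was exactly 0, whereas 102 of 1734 values of the other lower genes were, all 102 on null arrays. The choice puts the null mean of each member below -1 but sets no limit on single null values. This contrast is therefore partly built into the choice.

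Small GTPases and their regulators had the largest median difference of the role groups, -1.97 over 6 members. Roles were assigned after the values were known, and group medians are descriptions. Stard8, a GTPase-activating protein of the DLC family, had -3.17, -3.85 and -4.10 in null samples, against -0.0065, -0.59 and 0.56 in heterozygous samples. Its means were -3.71 ± 0.48 and -0.011 ± 0.57 (SD, n = 3 each), 13.0-fold lower in null cells. The member with the largest difference thus sat almost at the reference in controls. Arl10, an ARF-like GTPase gene, had -4.55, -4.28 and -4.20 in null samples, against -1.78, -2.43 and -2.07 in heterozygous samples (difference -2.25). Arhgap24, a GTPase-activating protein for Rac, had -1.71, -1.90 and -1.79 in null samples, against 0.10, -0.49 and 0.056 in heterozygous samples. The null values of Arhgap24 spanned a narrow range well below all control values. Sipa1l2, of the RapGAP family, and Mcf2l, a guanine nucleotide exchange factor, had differences of -1.12 and -1.13.

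**Figure D3:**
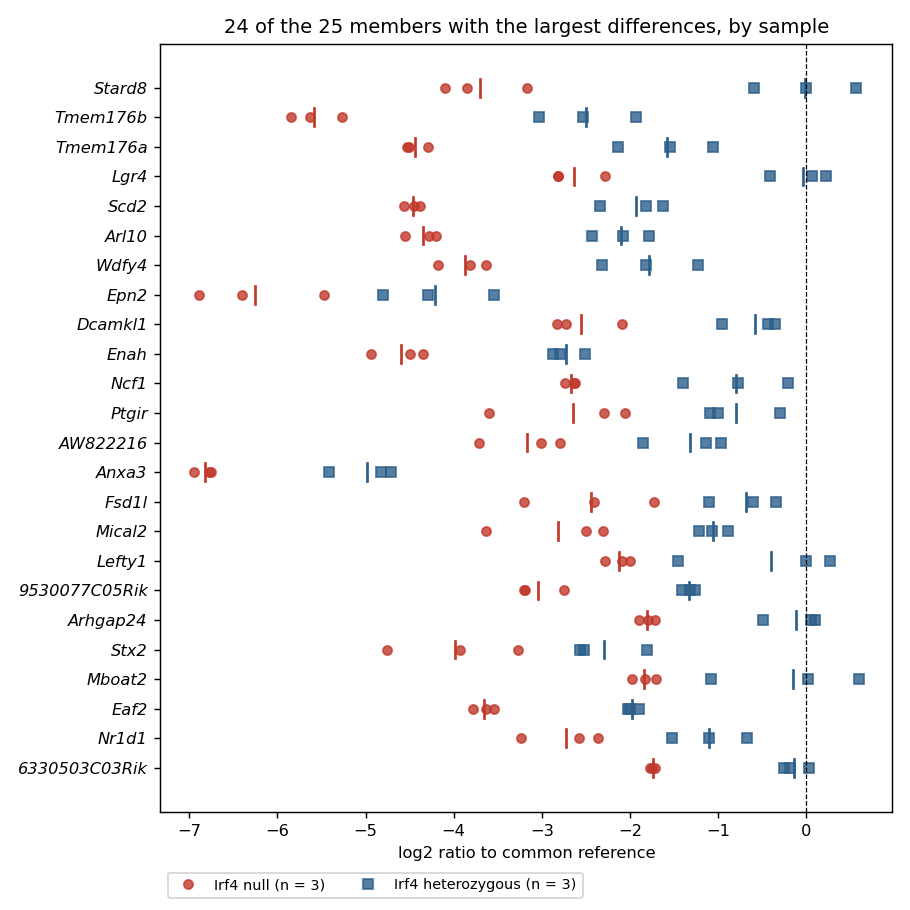
Log2 ratios to the reference (x axis) in 3 null samples (red circles) and 3 heterozygous samples (blue squares) for 24 of the 25 members with the largest differences, with vertical ticks at group means. In each row every red point lies left of every blue point, and the 24 genes start from heterozygous levels between -4.98 (Anxa3) and -0.011 (Stard8).

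Channels, transporters and pumps had a median difference of -1.22 over 6 members, with a pair far beyond the rest. Tmem176b and Tmem176a encode related membrane proteins with an MS4A-like fold, and in mice both are known as genes linked to RORgammat-expressing lymphocytes and to immature dendritic cells. Tmem176b had -5.84, -5.27 and -5.63 in null samples, against -3.03, -2.53 and -1.93 in heterozygous samples. This is 8.48-fold lower, from means of -5.58 ± 0.29 in null and -2.50 ± 0.55 in heterozygous cells (SD, n = 3 each). Tmem176a had -4.53, -4.29 and -4.51 in null samples, against -2.13, -1.55 and -1.06 in heterozygous samples, 7.26-fold lower. In both genes heterozygous replicate 3 was the highest sample and heterozygous replicate 1 the lowest of its group. The 2 listed probes of Tmem176a differed by -3.28 and -2.44. Slc41a2, a magnesium transporter gene and among the lowest members in control cells, had -5.42, -5.96 and -5.76 in null samples, against -4.04, -5.28 and -4.40 in heterozygous samples. Its heterozygous replicate 2 lay close to the null values. Slc25a24, a mitochondrial nucleotide carrier, and Atp6v0a1, a subunit of the vacuolar proton pump, had differences of -1.29 and -1.15.

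Receptors, ligands and adhesion molecules made up 14 members with a median difference of -1.39. Lgr4, a receptor for R-spondins that strengthens Wnt signalling, had -2.28, -2.82 and -2.82 in null samples, against 0.23, -0.41 and 0.061 in heterozygous samples, 6.06-fold lower. Its 2 probes gave differences of -2.73 and -2.47. Ptgir, the prostacyclin receptor gene whose promoter window holds an ETS-IRF element, had -3.60, -2.30 and -2.05 in null samples, against -0.29, -0.995 and -1.09 in heterozygous samples. Null replicate 1 was well below the other null samples and heterozygous replicate 1 above the other controls, so the spread was wide on both sides. Lefty1, a secreted antagonist of Nodal in the TGF-beta family, had -1.997, -2.09 and -2.28 in null samples, against the scattered control values given above, a difference of -1.73. Slamf7, a SLAM family receptor of lymphocytes, had -1.40, -1.95 and -2.46 in null samples, against 0.31, -0.76 and -0.54 in heterozygous samples. Other members of the group were the integrin subunit gene Itga7 (-1.53), the semaphorins Sema6d (-1.45) and Sema3b (-1.11), the growth factor gene Pdgfa (-1.30), the Notch ligand gene Jag2 (-1.24), the synaptic adhesion gene Nlgn2 (-1.13), the prion protein gene Prnp (-1.06) and Atrnl1 (-1.58), all as differences.

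Itgax, which encodes CD11c, an integrin subunit of dendritic cells that some activated T cells also carry, had -2.40, -3.47 and -2.85 in null samples, against -1.01, -1.95 and -1.77 in heterozygous samples. It was the only member among 30 myeloid and dendritic cell markers on a list, of which 3 had a named probe. The other 2 moved in opposite directions, Cd86 with a difference of -2.45 and Ms4a6d with 3.46. Cd86, with a heterozygous mean of -0.30, met both limits and is not a member only because its symbol was barred. Levels of these 3 markers ran from -3.47 to 0.73 in null samples and from -3.32 to -0.099 in heterozygous samples. Wdfy4 and Ncf1, members that are also prominent in dendritic cells, B cells or phagocytes, are on none of the lists. Of 21 B cell and plasma cell markers on a list, 3 had a named probe and were called by limma: Cd24a with a difference of -2.39 and Fcrl1 with -3.81, both lower, and Sdc1 with 1.39, higher. Levels of those 3 ran from -2.46 to -0.25 in null samples and from -3.39 to 3.52 in heterozygous samples. Named genes had already been selected for change on these samples, where 1.17% of all rows were called lower and 1.26% higher, so nothing is read from these calls. The other markers on both lists had no named probe, and the part of other cells in these values was not tested. Ly6c, an older symbol now held by Ly6c1, is a surface protein gene of naive and memory T cells and monocytes. It had -1.72, -2.16 and -2.11 in null samples, against -0.57, -0.92 and -0.73 in heterozygous samples. Its array probe may not separate the near-identical Ly6c copies.

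Metabolic enzymes had a median difference of -1.31 over 10 members, with the largest differences in Scd2 (-2.54), Ncf1 (-1.87) and Mboat2 (-1.69). Scd2, which encodes a stearoyl-CoA desaturase, the enzyme class that makes monounsaturated fatty acids, had -4.56, -4.45 and -4.38 in null samples, against -1.63, -2.34 and -1.82 in heterozygous samples, 5.80-fold lower. Scd1, a related gene with 1 coding gene between it and Scd2, had -3.17, -3.35 and -4.04 in null samples, against -1.35, -2.40 and -2.10 in heterozygous samples, 2.96-fold lower. The groups did not overlap for either gene, and heterozygous replicate 2 was the lowest control of each. Probes of the similar desaturase genes may share signal. Mboat2, a lysophospholipid acyltransferase gene, had -1.83, -1.71 and -1.98 in null samples, against 0.60, -1.08 and 0.018 in heterozygous samples. Of the 27 genes on a lipid and sterol list, 5 had a named probe, of which 3 were called lower and 1 higher by limma. Those called lower were Scd2, Stard8 and Abcg1, which is not a member. The 3 members on the list are Scd1, Scd2 and Stard8, and Scd1 was not called (limma adjusted p = 0.0822). Of all rows, 1.17% were called lower and 1.26% higher. Since named genes had already been selected for change on these samples, nothing is read from the calls on this list.

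Ncf1, which encodes the p47phox subunit of the phagocyte NADPH oxidase, had -2.63, -2.63 and -2.73 in null samples, against -1.40, -0.21 and -0.78 in heterozygous samples. The null values hardly differed from each other, while the controls spanned more than 1 unit. Egln1, which encodes the oxygen-sensing prolyl hydroxylase PHD2, had -1.25, -1.17 and -1.05 in null samples, against 0.26, -0.42 and -0.084 in heterozygous samples. Pfkp, a phosphofructokinase gene of glycolysis, had -1.58, -1.496 and -1.42 in null samples, against -0.13, -0.83 and -0.45 in heterozygous samples. Of 27 glycolysis and hypoxia genes on a list, 4 had a named probe and 4 did not pass the limma threshold. Jmjd1a, now Kdm3a, a histone demethylase gene induced by hypoxia, had a difference of -1.29. The other enzymes were the drug-metabolizing genes Cyp2s1 (-1.28) and Ugt1a6b, the galactosyltransferase gene B4galt2 (-1.33) and the serine racemase gene Srr (-1.07). Ugt1a6b had -6.05, -5.51 and -5.87 in null samples, against -4.74, -4.38 and -4.54 in heterozygous samples, a difference of -1.26. It shares exons with the other genes of the Ugt1a cluster, so its probe may not be specific.

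Cytoskeleton, motors and the nuclear lamina formed the most numerous role group, with 18 members and a median difference of -1.33. Dcamkl1, now Dclk1, a microtubule-binding kinase gene, had -2.09, -2.73 and -2.83 in null samples, against -0.43, -0.96 and -0.35 in heterozygous samples. Enah, an actin filament elongation factor of the Ena/VASP family, had -4.35, -4.94 and -4.50 in null samples, against -2.87, -2.79 and -2.51 in heterozygous samples. Mical2, which oxidizes actin, had -3.63, -2.30 and -2.50 in null samples, against -1.07, -1.21 and -0.89 in heterozygous samples. Null replicate 1 of Mical2 was more than 1 unit below the other null samples. AW822216, now Obsl1, an obscurin-like gene, had -2.79, -3.01 and -3.72 in null samples, against -0.96, -1.85 and -1.14 in heterozygous samples. Its 3 probes disagreed in size, from -2.68 to -1.10, the widest range of any member with several probes.

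Myo1f, an unconventional myosin of leukocytes, had -2.30, -2.44 and -2.56 in null samples, against -1.13, -1.22 and -0.97 in heterozygous samples, with an SD of 0.13 in each group. Basp1, a membrane-bound cortical protein gene on the Th17 list, had -4.08, -3.11 and -3.33 in null samples, against -2.02, -2.35 and -2.43 in heterozygous samples. It was the only member among the 10 named of 33 Th17 genes, of which 5 were called lower and 0 higher by limma. Il1r1 on that list was higher in null cells by 1.09 but was not called (limma adjusted p = 0.0691). Of all rows, 1.17% were called lower and 1.26% higher. Named genes had already been selected for change on these samples, so nothing is read from this count. Lmna, which encodes lamins A and C of the nuclear envelope, had -5.07, -5.23 and -5.55 in null samples, against -3.50, -4.47 and -3.80 in heterozygous samples. Ahnak, a very large scaffold protein gene, and Anln, which encodes the cytokinesis protein anillin, had differences of -1.24 and -1.29. The 2 kinesin genes Kif13a and Kif1b had -1.36 and -1.25, the plakin gene Dst -1.05 and the titin gene Ttn -1.04. The others were Mtss1, Prph1 (-1.33), Ift81 (-1.33), Capn2 (-1.23) and Cttnbp2nl (-1.20).

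Annexins, which bind membranes in a calcium-dependent way, gave 3 members, with a median difference of -1.49. Anxa3, the lowest member in control cells, had -6.75, -6.78 and -6.95 in null samples, against -5.42, -4.71 and -4.82 in heterozygous samples, 3.59-fold lower. Anxa2 had -4.75, -4.58 and -4.75 in null samples, against -2.75, -3.46 and -3.39 in heterozygous samples. Anxa6 had -1.53, -1.06 and -0.73 in null samples, against -0.09, -0.042 and -0.032 in heterozygous samples, just below the reference. Dim spots could not be filtered, and the distance of the lowest levels from background is unknown.

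**Figure D4:**
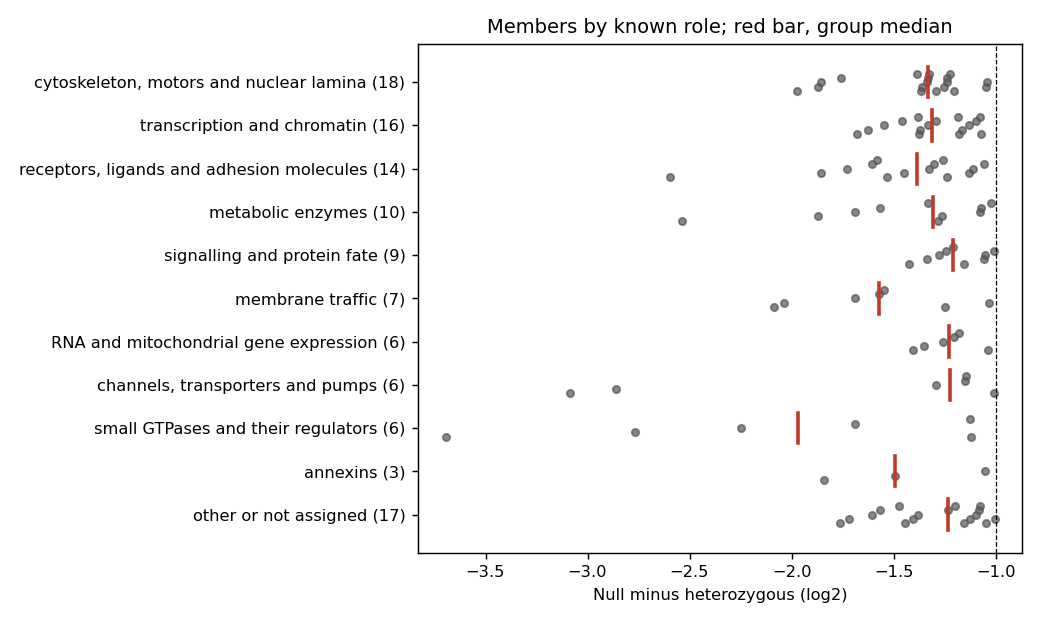
Null minus heterozygous in log2 units (x axis) for each of the 112 members, grouped by known role with the number of genes in brackets; each point is a gene, the red bar is the group median and the dashed line the limit of -1. Medians run from -1.97 for small GTPases and their regulators to -1.21 for signalling and protein fate.

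Transcription and chromatin genes had a median difference of -1.31 over 16 members. Eaf2, which encodes an ELL-associated elongation factor, had -3.79, -3.54 and -3.63 in null samples, against -2.03, -2.001 and -1.90 in heterozygous samples. Nr1d1, which encodes the heme-binding clock repressor REV-ERBalpha, had -3.23, -2.57 and -2.36 in null samples, against -1.10, -1.52 and -0.67 in heterozygous samples. Tcf3 had -4.05, -3.44 and -4.26 in null samples, against -2.20, -2.49 and -2.70 in heterozygous samples. The symbol now stands for the E protein E2A, whose activity Id1 inhibits, but RefSeq also lists it as an older name of Tcf7l1, so the identity of this probe is uncertain. Hey1, a repressor induced by Notch signalling, had -2.46, -2.52 and -2.42 in null samples, against -1.29, -0.93 and -1.03 in heterozygous samples. Runx2, a Runt family factor related to Runx1 and Runx3, had -1.72, -2.10 and -2.60 in null samples, against -0.58, -1.32 and -0.96 in heterozygous samples, and its 2 probes gave -1.20 and -1.17. Zfp318 (-1.55), Rcor3 (-1.38), Hivep1 (-1.33), Vax2 (-1.18), the linker histone gene H1f0 (-1.16), the Hedgehog pathway gene Gli3 (-1.13), E130016E03Rik, now the recombination gene Rad54b (-1.10), Tspyl2 (-1.08) and Thra (-1.07) complete the group with Jmjd1a.

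Membrane traffic genes had a median difference of -1.57 over 7 members. Wdfy4, a BEACH-domain gene required in mouse dendritic cells for cross-presentation, had -3.63, -3.81 and -4.18 in null samples, against -2.31, -1.23 and -1.81 in heterozygous samples, 4.25-fold lower. Epn2, which encodes an epsin of clathrin-mediated endocytosis, had -5.47, -6.41 and -6.89 in null samples, against -3.54, -4.81 and -4.30 in heterozygous samples. Stx2, a syntaxin gene, had -3.27, -3.93 and -4.76 in null samples, against -1.80, -2.57 and -2.52 in heterozygous samples. In Epn2 and Stx2 null replicate 3 was the lowest sample and null replicate 1 the nearest to the controls. Syt13, a synaptotagmin gene among the 5 lowest members in control cells, had -6.52, -5.93 and -5.87 in null samples, against -4.35, -5.07 and -4.27 in heterozygous samples. The other members of those 5 are Anxa3, Epn2, Slc41a2 and Ugt1a6b. Lyst, the gene mutated in Chediak-Higashi syndrome, had a difference of -1.03, and 2900002H16Rik, now Rilpl1, had -1.25.

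Signalling and protein fate genes had smaller differences, with a median of -1.21 over 9 members. Fkbp1b, an immunophilin that binds ryanodine receptors, had -1.42, the phosphatase gene Ctdspl -1.06 and Gkap1 -1.05. Trim36 had -1.28, the ubiquitin pathway gene Ufd1l -1.01, Ankrd13d -1.24, the heat shock protein gene Hspa2 -1.21 and the co-chaperone gene Aipl1 -1.34. RNA and mitochondrial genes had a median of -1.23 over 6 members, from 4930431B09Rik (-1.40), now Tent5c, an RNA poly(A) polymerase gene, to 2010305A19Rik (-1.03), now Coa7. Between them lay Mrpl17 of the mitochondrial ribosome, the translation regulator Cpeb2, 2700083E18Rik, now Mex3a, and Trove2, now Ro60. The remaining 17 members were not assigned a role. The largest differences there were those of Fsd1l (-1.76), 9530077C05Rik (-1.72) and 6330503C03Rik (-1.61), now Fam131b. Fsd1l had -2.40, -3.21 and -1.73 in null samples, against -0.35, -1.10 and -0.61 in heterozygous samples. The null samples of 9530077C05Rik had -3.21, -3.19 and -2.74, against -1.32, -1.41 and -1.26 in heterozygous samples. In 6330503C03Rik the null samples had -1.71, -1.74 and -1.77, against -0.19, -0.25 and 0.027 in heterozygous samples. 5330426P16Rik, now the long non-coding RNA Dubr, had a difference of -1.57. The others were Trp53i11 (-1.47), 9130404D14Rik, now Niban2 (-1.45), Tmcc3 (-1.41), 4930555G01Rik (-1.38), Mipol1 (-1.23), Tmem65 (-1.20), 4930402H24Rik (-1.15), 9930012K11Rik (-1.13), 1700017B05Rik (-1.10), Tcta (-1.08), BC068157 (-1.08), Armcx3 (-1.05) and 8430427H17Rik, now Nol4l.

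Several members were neighbours on the chromosome. Of 110 members with a place in the order of protein-coding genes, 16 formed 8 pairs with at most 2 coding genes between them, and 4 pairs had none. The same count was not made for other sets of genes, so nothing is read from its size. The adjacent pairs were Tmem176b with Tmem176a, 9530077C05Rik with Anln, Nr1d1 with Thra, and Lmna with 2700083E18Rik. Nr1d1 and Thra overlap at their ends on opposite strands. Thra, a thyroid hormone receptor gene, had -3.52, -2.97 and -3.03 in null samples, against -1.98, -2.24 and -2.09 in heterozygous samples. The pairs with 1 coding gene between them included Scd2 with Scd1 and Syt13 with Trp53i11. Sipa1l2 and Egln1 had 2 genes between them. Members also had other named neighbours at the same distance, in 9 pairs with a gene lower by at least 1 unit and in 8 pairs with a gene higher by at least 1 unit. With 1 coding gene between it and Tmem176b, Gimap5, a GTPase gene of lymphocyte survival, had a difference of 1.18, while Tmem176b had -3.08.

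**Figure D5:**
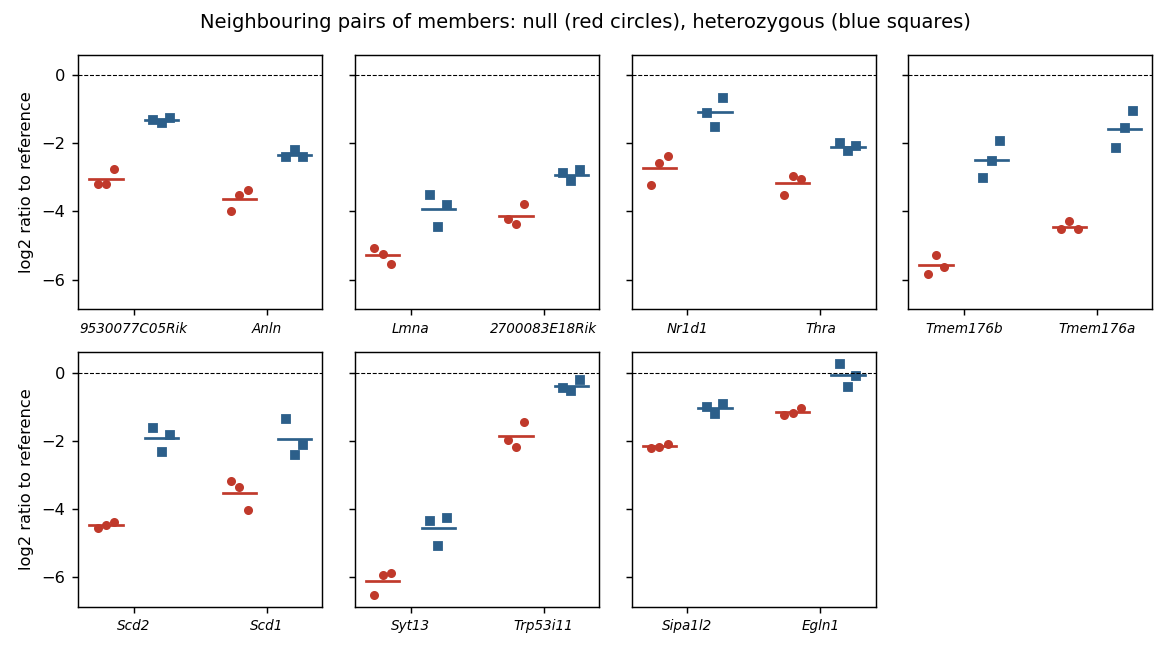
Log2 ratios to the reference (y axis) for 7 of the 8 pairs of members with at most 2 coding genes between them, with 3 null samples (red circles) left of 3 heterozygous samples (blue squares) for each gene and bars at group means. Red lies below blue for each of the 14 genes, as the choice of members requires. Distances from 0 are not compared between genes, since each probe has its own ratio to the reference.

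Of 16 gene lists, 7 held at least 1 member and 10 members were on a list. The list of Irf4 partners and upstream factors, 29 genes, had no named probe, so their levels are not known here. None of the named genes among B cell, erythroid, gamma-delta T, stromal, neural, cytotoxic, T cell identity or T cell receptor signalling lists was a member. Some of these genes were barred from membership by symbol, among them Cd247, Cd28, Cd24a, Cd8a, Tnfaip3 and Nfil3. Their absence is therefore not read as a result. Of the 20 naive and quiescence genes 2 were named, 1 called lower, and of the 30 adhesion and cytoskeleton genes 4 were named, 1 called higher and 1 lower. The ion channel and transporter list had 2 of 26 genes named, 1 called higher. Every named gene on a list had already been selected for change on these samples. Beside 1.17% of all rows called lower and 1.26% higher, the called counts of lists are therefore not read as results.

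Agreement between probes could be seen only for probes in the authors' table, all of them past 2-fold, so probes of the same gene that changed less are not included. Of the 112 members, 96 had 1 listed probe, 15 had 2 and 1 had 3. Over the 16 genes with several, the median range of the difference between probes was 0.15. Levels were less alike: the heterozygous mean differed by over 1 unit between probes in 4 genes, with the widest range of 2.29 in Ahnak, and in 6 genes 1 of the probes lay above the reference in heterozygous cells. At the limits of the choice, members near a difference of -1 were 8430427H17Rik (-1.003), Ufd1l (-1.01) and Pfkp (-1.02), and none stood just outside, because the deposited table keeps only probes past a 2-fold change. Near the reference in heterozygous cells were Stard8 (-0.011), Ttn (-0.02) and Dst (-0.029) inside, and Zfp238 (0.018), A730095J18Rik (0.02), 2610042L04Rik (0.031) and Stra8 (0.048) outside.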

How the data were processed

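Irf4 null and heterozygous Th17-polarized mouse T cells were compared on 2-colour Agilent arrays, 3 arrays each. Per the submitters' processing notes, Agilent Feature Extraction 10.7 and Partek were used. Values deposited by the authors are log2 ratios, called normalized per the file headers. Log base and direction were checked against their deposited folds: for 828 probes the largest gap was 1.03e-05. Intensities and background flags were not used here. Per the file headers, the authors' deposited table of p-values and signed fold-change scores was made in Partek Genomic Suite 6.6 by 1-way ANOVA, keeping probes past 2-fold at a p-value under 0.05.

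Only that table pairs probes with symbols. Of its 828 probes 12 had no symbol, and the rest gave 689 symbols, so every named gene had been selected for change on these samples. Listed probes of a symbol were averaged, other probes stayed as rows, and limma 3.58.1 (R 4.3.3) was fitted to 22622 rows without covariates, with Benjamini-Hochberg adjustment. Its code was tested on simulated data. Of the 112 member symbols, 95 were current in the RefSeq table of GRCm38.p6, 16 were updated through a synonym and 1 (BC068157) was unmatched. Members, gene lists (16 lists, 367 different genes) and tests were chosen with earlier results of these data known. Per-sample values are given for the 25 members with the largest difference (some genes are not reported here), the 5 lowest in heterozygous cells and those on a list. Members given in full beyond these were chosen after their values were seen. Separate animals are not stated, so p-values reflect only how these samples vary.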

Additional observations from a re-analysis of the deposited data

How the results depend on the processing

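The number of members was 112 and lay between 93 and 114 under every other normalization, summary and single-sample omission tried, with 93 without null replicate 1, 99 without heterozygous replicate 1 and 106 as the highest count with a sample left out. It was 68 with a heterozygous mean below -1 and 33 with a difference at or below -1.5. Genes missing from the deposited table could not enter under any setting. Members past an adjusted limma p of 0.05 numbered 49, against 86 at 0.1, 27 with the methods' 1-way ANOVA, and 0 to 29 with 1 sample left out. The number of genes and probes past the threshold was 551, against 790 with that ANOVA, 326 without the least variable 25% of probes and 30 to 239 with 1 sample left out. With the replicate block, 13 rows and 0 members passed, with an unadjusted limma p under 0.05 for 3727 rows and, after the authors' own filter on p in these samples, for all 112 members, and Irf4 kept -2.26 with an adjusted p of 0.0534. For samples sharing a number, the correlation of deviations from group means was 0.097, -0.013 and -0.037, so the numbers are not shown to pair the samples. Over the other settings the adjusted p of Irf4 was 0.0034 to 0.0334. Of 1344 member differences recomputed under the other settings, 0 changed sign, which the choice of members favours, and 6, in 5 members, moved by more than 1 SD. Scaling arrays to 1 spread was chosen after the data were seen. Fewer samples leave fewer degrees of freedom. For the remaining shifts the cause was not tested.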
